A study of Mus musculus with 24 samples.

Results

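The genes described here are 8 markers of the enteric nervous system, taken by symbol from the 23329 gene symbols of the deposited tables: the glial genes Sox10, S100b and Gfap, and the neuronal genes Ret, Elavl4, Nos1, Chat and Vip. Messenger RNA had been counted in 24 libraries of C57Bl/6 mouse colon, 4 in each of 6 groups. Control mice carried VilCre, a Cre recombinase driven by the villin promoter, which acts in gut epithelium, and the transgenic mice carried VilCre together with CMVcaNrf2, which encodes an active NRF2, a transcription factor of the oxidative stress response. All groups therefore carried VilCre. Colon wall was taken from untreated mice of both genotypes and from mice of both genotypes given dextran sulfate sodium (DSS), a chemical that injures the colon lining. Epithelial cells were taken from untreated mice of both genotypes only. The wall samples were 10 mm pieces cut about 10 to 20 mm proximal to the rectum. The sources used here give neither the DSS dose and duration nor the ages of the mice. The design text mentions triplicates, the labels give 4 libraries a group, and neither says that each came from its own animal. The p-values therefore measure the spread between these samples only.

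The enteric nervous system consists of neurons and glia that lie in ganglia within the gut wall, between the muscle layers and beneath the mucosa. Both cell types descend from neural crest cells that depend on RET, the receptor for GDNF family ligands. Inhibitory motor neurons release nitric oxide and vasoactive intestinal peptide and relax the muscle, and excitatory neurons release acetylcholine and tachykinins and contract it. Enteric glia surround the neurons, and SOX10, S100B and GFAP are their usual markers.

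For 6 of the 8 genes a promoter window was found in the RefSeq table on GRCm38.p6 (no window was matched for Sox10 and Ret). A link between promoter motifs and a change with DSS was not tested. Windows are shown as examples of both cell types. They are those of Vip and Chat, which encode a transmitter and a transmitter enzyme, and of the glial genes S100b and Gfap. Each runs 5′ to 3′ on the gene's strand, from 250 bases before to 50 bases after the annotated start, which is also the start of the gene in the deposited files. Capitals mark TGACG on either strand, the core of the cAMP response element, or its longer form TGACGTC, which contains TGACG.
Vip, chr10:5638968-5639267, plus strand: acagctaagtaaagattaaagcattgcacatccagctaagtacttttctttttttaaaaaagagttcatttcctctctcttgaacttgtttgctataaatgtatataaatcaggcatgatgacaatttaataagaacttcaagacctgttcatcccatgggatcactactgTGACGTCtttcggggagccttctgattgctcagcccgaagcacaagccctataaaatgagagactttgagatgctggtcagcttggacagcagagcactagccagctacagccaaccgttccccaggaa
Chat, chr14:32465860-32466159, minus strand: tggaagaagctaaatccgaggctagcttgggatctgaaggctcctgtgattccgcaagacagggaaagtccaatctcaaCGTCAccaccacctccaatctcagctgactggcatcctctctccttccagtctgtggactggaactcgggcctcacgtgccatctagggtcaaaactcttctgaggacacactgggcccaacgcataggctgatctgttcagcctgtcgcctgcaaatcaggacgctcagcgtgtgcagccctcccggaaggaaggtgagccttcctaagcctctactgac
S100b, chr10:76253586-76253885, plus strand: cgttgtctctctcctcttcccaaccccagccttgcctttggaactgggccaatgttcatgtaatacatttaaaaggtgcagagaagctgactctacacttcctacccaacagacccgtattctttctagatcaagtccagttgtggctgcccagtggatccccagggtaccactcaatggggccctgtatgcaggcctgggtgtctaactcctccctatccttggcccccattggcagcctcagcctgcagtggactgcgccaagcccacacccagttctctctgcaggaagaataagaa
Gfap, chr11:102897151-102897450, minus strand: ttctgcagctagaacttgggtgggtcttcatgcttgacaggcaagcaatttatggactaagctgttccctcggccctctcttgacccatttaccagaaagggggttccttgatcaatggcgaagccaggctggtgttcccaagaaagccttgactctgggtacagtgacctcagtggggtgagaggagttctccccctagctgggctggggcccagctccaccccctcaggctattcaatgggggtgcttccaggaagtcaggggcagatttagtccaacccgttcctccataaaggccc
The Vip window held TGACGTC with its first base at position -79 from the start, and 3.21% of all 32851 promoter windows in the table held that motif on either strand. TGACG, held by 20.8% of all windows, was in the windows of Vip, Chat and Nos1 and in 3 windows of Elavl4. Of those 3, 2 overlap and hold the same TGACG site. The SOX motif ACAATG (12.6% of all windows) was found in 1 window of Elavl4 only, and ACAAAG (18.7%) in none. The E-box CAGGTG (20.2%) was in Nos1 and, as 1 shared site, in the 2 overlapping windows of Elavl4. None of these 5 motifs was in the S100b or Gfap window, which says only that these letters are not there.

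Total counts ran from 20232317 to 154335999 in the 16 wall libraries and from 6683785 to 15399870 in the 8 epithelial ones. Values below are CPM, counts scaled to the TMM-corrected library size, where TMM is edgeR's correction for library composition. Nfe2l2, which encodes NRF2, ran from 99.5 to 146.2 CPM in untreated control wall and from 147.6 to 238.5 in untreated transgenic wall, and from 138.8 to 203.2 against 231.0 to 370.1 in epithelial cells. With DSS the Nfe2l2 ranges of the genotypes overlapped by a narrow margin, 110.6 to 167.9 in control and 166.4 to 284.7 CPM in transgenic wall. The wall libraries of replicate 4 carry another leading number in their file names than the other 12, a number that no source used here explains. The summed smooth muscle markers (12 genes) ran from 12590 to 17340 CPM in untreated wall and from 117.8 to 181.4 CPM in epithelial cells. This sum and the next were scaled for each tissue on its own. The summed epithelial markers (11 genes) overlapped between tissues, at 17020 to 28130 CPM in untreated wall and 9903 to 45930 CPM in epithelial cells. Control epithelial replicate 3 (43130 CPM) and transgenic epithelial replicate 1 (45930 CPM) stood apart from the other epithelial libraries. Those others ran from 9903 to 16850 CPM, below every untreated wall library. Of the 11 genes, 4 (Aqp8, Cdh1, Epcam and Slc26a3) were lower in the epithelial cells and none higher.

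In untreated wall, Vip was the most abundant of the 8 genes per transcript length and Chat the least. In TPM, the authors' level per transcript length, Vip was at 61.8 ± 34.3 (SD, n = 4) in control wall and Gfap at 11.6 ± 7.91. Ret followed at 4.52 ± 0.729, S100b at 3.39 ± 0.604 and Nos1 at 3.38 ± 0.689 TPM. Elavl4 stood at 2.33 ± 0.350, Sox10 at 2.05 ± 0.996 and Chat at 0.523 ± 0.103 TPM. The ranges of Gfap and Ret overlapped, as did those of each following pair down to Sox10, so only the places of Vip at the top and Chat at the bottom were separate from their neighbours. The transgenic wall had Sox10 ahead of Elavl4 and otherwise this order. With DSS, Nos1 stood ahead of Ret, and Sox10 ahead of S100b and Elavl4, in both genotypes, with overlapping ranges. The transcript model of Nos1 in the deposited files spans 4388 bases, against 10123 bases in GENCODE, so its level per length depends on that model.

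The main question the design poses for these genes is whether their RNA differed in the wall after DSS. In control wall 6 of the 8 were higher with DSS, and Gfap and Vip did not pass the test. In transgenic wall all 8 were higher. Calls are an adjusted p below 0.05 in edgeR's quasi-likelihood test with Benjamini-Hochberg adjustment over all 16074 genes that passed a filter on low counts, as all 8 did. In that test 39.2% of all genes were called in control wall (23.1% higher) and 41.2% in transgenic wall (23.1% higher). The median log2 fold change was 1.14 over the 8 genes in control wall and 1.38 in transgenic wall, beside 0.063 and 0.011 over all genes. In these bulk samples, a larger share of cells of a type and more RNA per cell cannot be told apart, nor can fewer cells and less RNA per cell. These values are relative to the rest of the library and measure no number of neurons or glia.

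**Figure D1:**
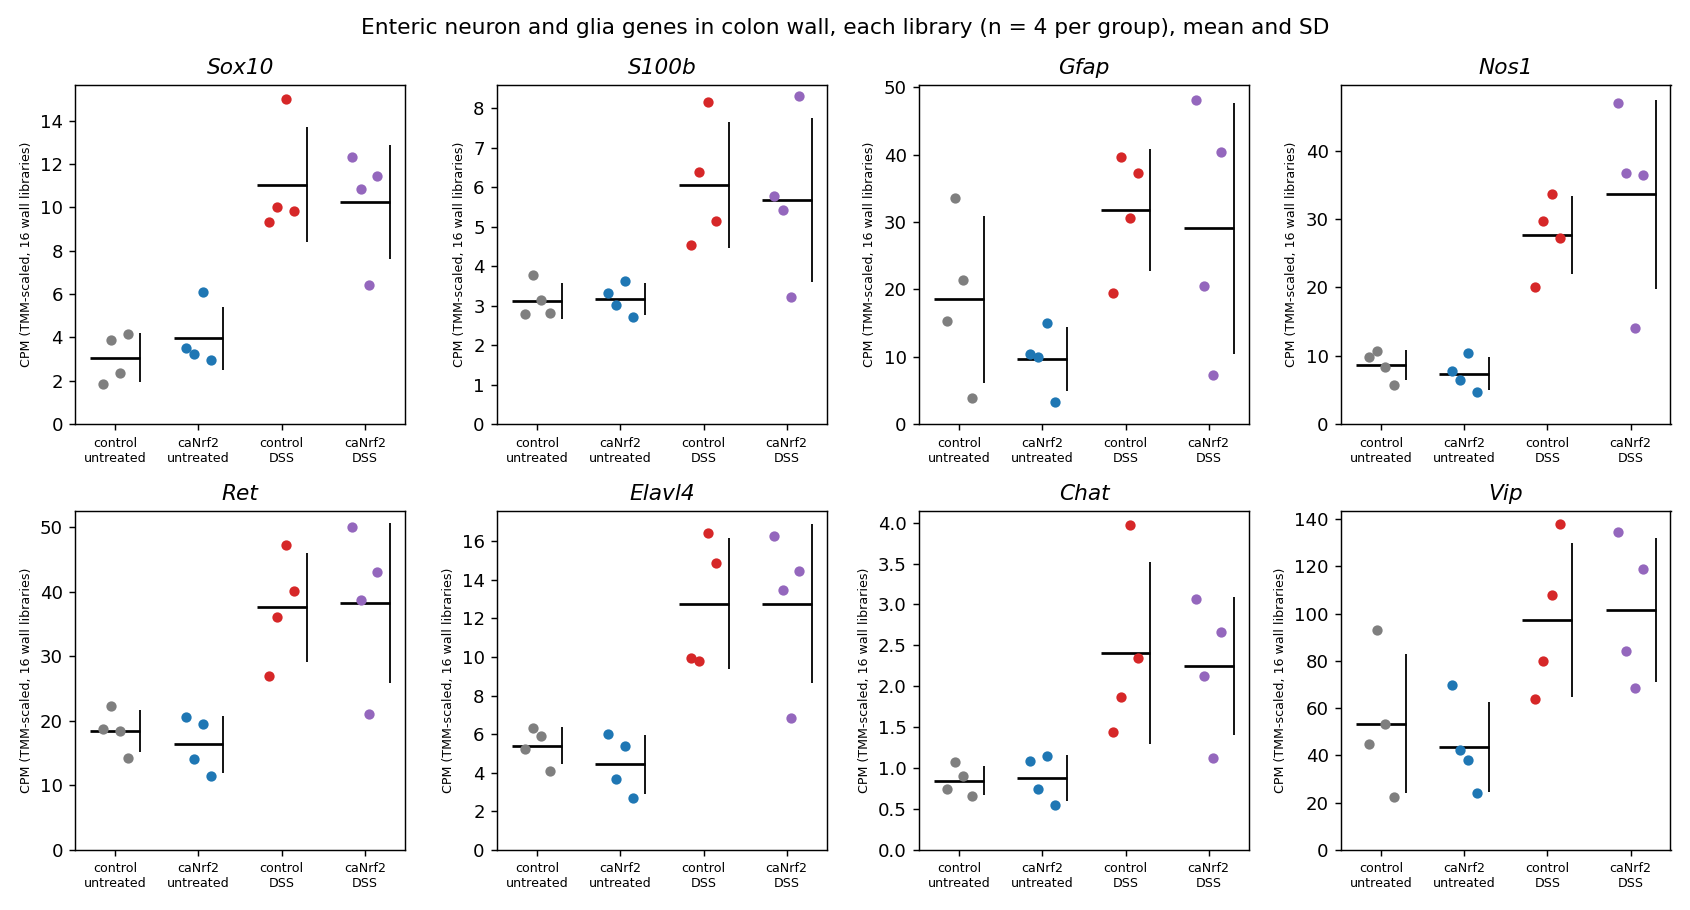
CPM of each of the 8 genes in the 16 wall libraries (linear axes from 0), with untreated and DSS groups of control and transgenic (caNrf2) mice on the x axis. Points are libraries, horizontal lines are group means and vertical lines the SD (n = 4). Nos1 in control wall moved from 5.77 to 10.7 CPM without DSS to 20.0 to 33.7 CPM with it, and transgenic DSS replicate 3 is the lowest point of its group in every panel.

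Among the glial genes, Sox10, a transcription factor that keeps glia and their crest precursors in their state, changed the most in control wall. Sox10 (chromosome 15, 79154913 to 79164490, minus strand, mm10) was at 1.85, 3.90, 2.34 and 4.13 CPM in untreated control wall and at 9.32, 10.0, 14.99 and 9.84 CPM with DSS. Every DSS library was above every untreated one. Sox10 rose by 1.85 ± 0.31 (SE) on the log2 scale, with an adjusted p of 4.62e-04 in edgeR's test. In transgenic wall Sox10 was at 3.51, 3.22, 6.11 and 2.96 CPM untreated and at 12.3, 10.9, 6.42 and 11.4 CPM with DSS. The groups again did not overlap, though DSS replicate 3 lay close to untreated replicate 3. The log2 fold change was 1.38 ± 0.30 (adjusted p = 0.00234, edgeR).

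S100b, which encodes a calcium-binding protein of glia, is also expressed by fat cells and other cell types. S100b (chromosome 10, 76253836 to 76261319, plus strand) was at 2.79, 3.77, 3.14 and 2.80 CPM in untreated control wall and at 4.54, 6.39, 8.15 and 5.13 CPM with DSS. The control groups did not overlap, and S100b rose by 0.95 ± 0.26 on the log2 scale (adjusted p = 0.00881, edgeR). In transgenic wall it was at 3.33, 3.01, 3.63 and 2.71 CPM untreated and at 5.77, 5.41, 3.21 and 8.30 CPM with DSS. Here DSS replicate 3 lay inside the untreated range. S100b rose there by 0.84 ± 0.26 on the log2 scale (adjusted p = 0.017, edgeR), and the call was lost without untreated replicate 4 (adjusted p = 0.0509) and without DSS replicate 4 (adjusted p = 0.0687). The summed fat cell markers (6 genes) ran from 24.0 to 87.3 CPM in untreated and from 86.6 to 160.8 CPM in DSS-treated transgenic wall, and from 22.8 to 203.9 and 38.7 to 106.1 CPM in control wall. Their part in the S100b values was not tested.

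Gfap, the intermediate filament of glia, varied widely between replicates. Gfap (chromosome 11, 102887336 to 102897200, minus strand) was at 15.3, 33.5, 21.4 and 3.80 CPM in untreated control wall and at 19.4, 39.7, 30.6 and 37.3 CPM with DSS. These groups overlapped widely, and the log2 fold change of 0.79 ± 0.58 did not pass (adjusted p = 0.291, edgeR) and ran from 0.39 to 1.24 as single libraries of control wall were left out, lowest without untreated replicate 4 and highest without untreated replicate 2. In transgenic wall it was at 10.4, 9.92, 14.9 and 3.33 CPM untreated and at 48.1, 20.4, 7.25 and 40.4 CPM with DSS. Replicate 3 of the DSS group again lay within the untreated range, and the other 3 DSS libraries were above it. The log2 fold change was 1.60 ± 0.59 (adjusted p = 0.0403, edgeR). That call was lost when any of 5 of the 8 transgenic wall libraries was left out: untreated replicates 1, 2 and 4 and DSS replicates 1 and 4 (adjusted p from 0.0708 to 0.137). The fitted value without these libraries ran from 1.19 to 1.63. With the replicate number as a block it was 1.73 and did not pass (adjusted p = 0.0573).

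Ret, the receptor tyrosine kinase for GDNF family ligands, remains expressed in adult enteric neurons. Ret (chromosome 6, 118151748 to 118197744, minus strand) was at 18.7, 22.3, 18.4 and 14.3 CPM in untreated control wall and at 27.0, 36.1, 47.2 and 40.1 CPM with DSS. All DSS libraries were above all untreated ones, with a log2 fold change of 1.03 ± 0.25 (adjusted p = 0.00488, edgeR). In transgenic wall Ret was at 20.6, 14.03, 19.5 and 11.4 CPM untreated and at 50.04, 38.7, 21.1 and 43.1 CPM with DSS. The lowest DSS value was just above the highest untreated one, and Ret rose by 1.23 ± 0.25 on the log2 scale (adjusted p = 0.00156, edgeR).

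The deposited tables split Ret into transcripts that encode a protein of 1073 residues and one of 1115 residues, which differ at the 3′ end. The transcript of the longer protein took 15.1% to 30.5% of the Ret count in untreated control wall and 23.7% to 30.9% with DSS. In transgenic wall it took 15.4% to 42.6% untreated and 31.7% to 46.3% with DSS. Both untreated groups had their lowest share in replicate 4, and the ranges of untreated and DSS groups overlapped in both genotypes. These shares rest on the authors' estimated assignment of reads to transcripts.

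Elavl4, an RNA-binding protein of the HuC/D family that marks neurons, rose in both genotypes. Elavl4 (chromosome 4, 110203737 to 110351911, minus strand) was at 5.23, 6.34, 5.92 and 4.11 CPM in untreated control wall and at 9.96, 9.79, 16.5 and 14.9 CPM with DSS. The groups did not overlap, and Elavl4 rose by 1.24 ± 0.29 on the log2 scale (adjusted p = 0.0038, edgeR). In transgenic wall Elavl4 was at 6.03, 3.66, 5.38 and 2.71 CPM untreated and at 16.3, 13.5, 6.86 and 14.5 CPM with DSS, again without overlap. It rose there by 1.54 ± 0.30 on the log2 scale (adjusted p = 9.60e-04, edgeR).

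Nos1, the neuronal nitric oxide synthase of inhibitory motor neurons, had the largest fitted change of the 8 in transgenic wall. Nos1 (chromosome 5, 117867119 to 117953813, plus strand) was at 9.84, 10.7, 8.41 and 5.77 CPM in untreated control wall and at 20.0, 29.8, 33.7 and 27.3 CPM with DSS. The lowest DSS library was well above the highest untreated one, and the log2 fold change was 1.68 ± 0.32 (adjusted p = 0.00102, edgeR). In transgenic wall Nos1 was at 7.78, 6.47, 10.5 and 4.75 CPM untreated and at 47.0, 36.8, 14.1 and 36.6 CPM with DSS. Replicate 3 was set apart from the other DSS libraries but still above all untreated ones. Nos1 rose by 2.20 ± 0.32 on the log2 scale (adjusted p = 1.70e-04, edgeR). The exons of Nos1 overlap an antisense gene, Gm26995, by 169 bases, and no source used here gives the strand setting of the counting.

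Vip, which encodes the peptide that inhibitory motor and secretomotor neurons release beside nitric oxide, passed in transgenic wall. Vip (chromosome 10, 5639218 to 5647614, plus strand) was at 44.7, 92.9, 53.3 and 22.3 CPM in untreated control wall and at 63.7, 79.8, 108.0 and 137.8 CPM with DSS. Untreated replicate 2 lay above the lowest 2 DSS libraries. The log2 fold change of 0.87 ± 0.38 did not pass (adjusted p = 0.0782, edgeR), and without untreated replicate 2 it was 1.28 and passed (adjusted p = 0.0169). Without untreated replicate 4 it was 0.56 and did not pass. In transgenic wall Vip was at 69.7, 42.3, 38.2 and 24.0 CPM untreated and at 134.6, 84.1, 68.6 and 118.9 CPM with DSS. The groups overlapped only between untreated replicate 1 and DSS replicate 3, and Vip rose by 1.22 ± 0.38 on the log2 scale (adjusted p = 0.0182, edgeR). That call was lost without untreated replicate 4 (adjusted p = 0.0619) or DSS replicate 1 (adjusted p = 0.0583).

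Chat, the enzyme that makes acetylcholine, had the lowest counts of the 8 in the wall, from 24 to 133 reads per library. Chat (chromosome 14, 32408203 to 32465909, minus strand) was at 0.745, 1.07, 0.908 and 0.661 CPM in untreated control wall and at 1.44, 1.86, 3.98 and 2.34 CPM with DSS. The groups did not overlap, and Chat rose by 1.51 ± 0.37 on the log2 scale (adjusted p = 0.0046, edgeR). In transgenic wall it was at 1.08, 0.738, 1.15 and 0.552 CPM untreated and at 3.07, 2.12, 1.12 and 2.66 CPM with DSS. Only DSS replicate 3 reached into the untreated range. Chat rose by 1.38 ± 0.37 on the log2 scale (adjusted p = 0.00756, edgeR).

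Counted over the 8 genes, the DSS libraries were all above the untreated ones for 6 genes in control wall, where 18.7% of all genes had DSS libraries all above, and for 4 genes in transgenic wall, where 18.3% did. In the 12 wall libraries that share a leading file number, the same test called 6 of the 8 in control wall and 5 in transgenic wall. The calls of S100b (0.49, adjusted p = 0.149), Gfap (1.06, adjusted p = 0.109) and Chat (1.08, adjusted p = 0.0573) were lost there. The share of all genes called in these 12 libraries is not given here, so these counts have no background to be read against. The 4 libraries of replicate 4 hold 1 library of each wall group and allow no test of their own.

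The size of the DSS change depended on what it was measured against. Scaled to the summed counts of 12 smooth muscle genes, only Sox10 (1.56 ± 0.44, adjusted p = 0.0241) and Nos1 (1.47 ± 0.43, adjusted p = 0.0306) passed in control wall and only Nos1 (1.70 ± 0.44, adjusted p = 0.00857) in transgenic wall, by edgeR's test. On that scale all 8 still had fitted values above 0 in both genotypes, from 0.24 for S100b in transgenic wall upward. The median of all genes lay at -0.13 and -0.50, and 8.24% and 19.4% of all genes were called in control and transgenic wall (3.71% and 3.09% higher). The summed muscle counts varied widely within the DSS groups, from 11130 to 44250 CPM in control wall.

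Scaled to the summed counts of 19 other enteric neuron genes, a setting added after the data were seen, Nos1 passed in both genotypes. Nos1 was at 0.79 ± 0.26 (adjusted p = 0.0168, edgeR) in control and at 1.13 ± 0.26 (adjusted p = 0.00155) in transgenic wall. Sox10 passed in control wall only, at 0.90 ± 0.31 (adjusted p = 0.0235), and was at 0.36 ± 0.31 (adjusted p = 0.328) in transgenic wall. The other 6 genes had values from 0.01 to 0.54 in control and from -0.23, for S100b, to 0.52 in transgenic wall, and none passed. The medians of all genes on this scale were -0.82 and -0.95, and 49.2% and 58.1% of all genes were called (2.3% and 2.59% higher).

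**Figure D2:**
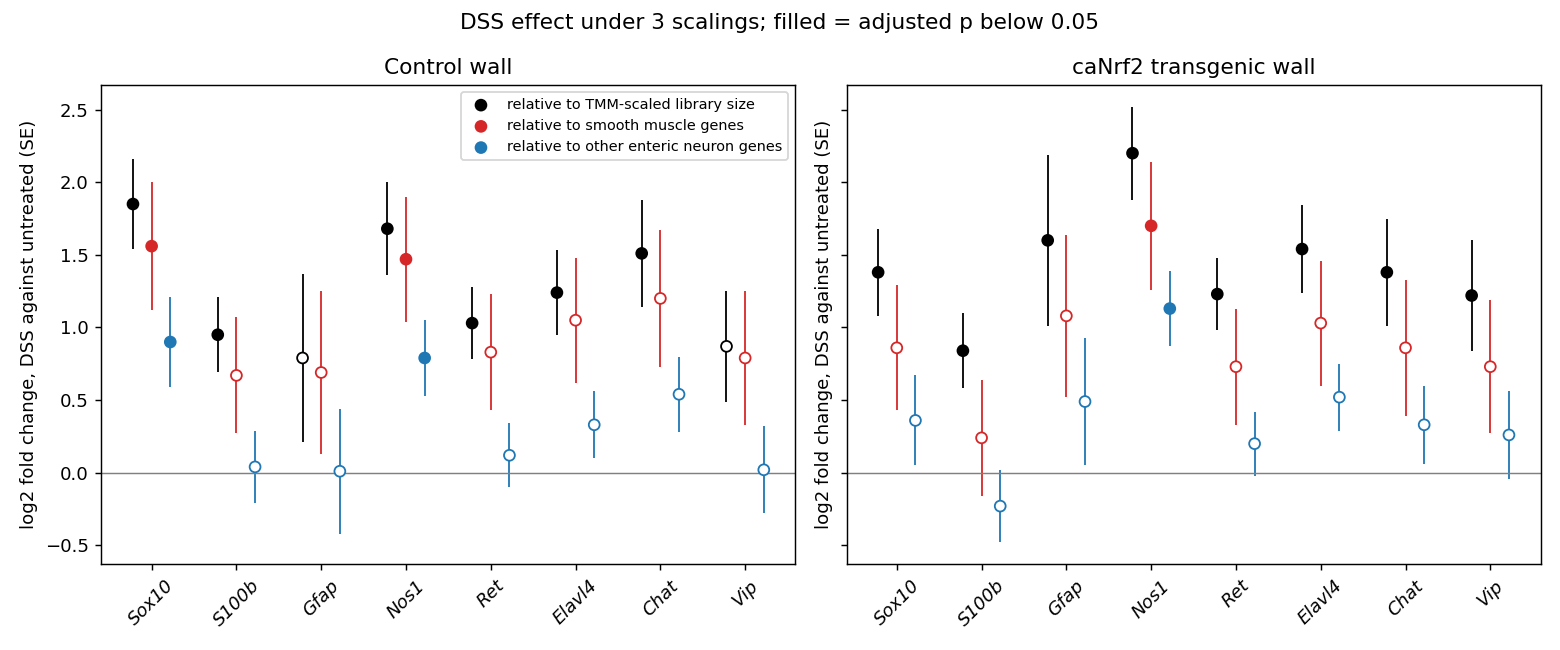
Log2 fold change with DSS against untreated wall (y axis, bars are SE) of the 8 genes in control (left) and transgenic (right) wall under 3 scalings. Filled points have an adjusted p below 0.05 in edgeR's test. Nos1 is filled under each scaling in both genotypes, and Sox10 under each in control wall.

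Other genes linked to the same cells were read from lists, and some of them also had RNA in epithelial cells. Of 19 other enteric neuron genes, 17 were higher with DSS in control wall and 18 in transgenic wall, with medians of 0.93 and 0.99 on the log2 scale. Ncam1, a cell adhesion molecule, rose from 17.2 ± 1.16 to 35.4 ± 6.96 CPM (SD, n = 4) in control wall and from 15.6 ± 2.22 to 32.3 ± 7.52 CPM in transgenic wall. Hand2, a transcription factor of enteric neuron differentiation, rose from 15.4 ± 3.60 to 43.0 ± 17.3 CPM in controls, and Elavl3, the HuC gene, from 2.67 ± 0.418 to 6.24 ± 2.07 CPM. Their log2 fold changes in transgenic wall were 1.36 ± 0.32 for Hand2 and 0.99 ± 0.28 for Elavl3 (adjusted p = 0.00379 and 0.0113, edgeR). Phox2a, a transcription factor of autonomic neurons, passed in neither genotype (0.47 ± 0.44 and 0.23 ± 0.44), and Scg2, which encodes a granule protein, did not pass in control wall (0.62 ± 0.26).

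Of 15 other glial and Schwann cell genes, 8 were higher with DSS and 1, Mbp, was lower in control wall, and 7 were higher and none lower in transgenic wall. Fitted values were above 0 for 13 and 12 of the 15, with medians of 0.76 and 0.89 on the log2 scale. Scn7a, a sodium channel of glia, rose from 14.8 ± 3.89 to 41.1 ± 6.24 CPM in control wall and from 11.6 ± 2.25 to 40.9 ± 12.8 CPM in transgenic wall. Cdh19, a cadherin of the Schwann cell lineage, rose by 1.46 ± 0.26 and 1.36 ± 0.26 on the log2 scale (adjusted p = 7.38e-04 and 9.86e-04, edgeR). Mbp, a myelin gene, fell by 0.52 ± 0.14 on the log2 scale in control wall (adjusted p = 0.0082, edgeR). It was 0.90 ± 0.10 higher in epithelial cells than in untreated wall (adjusted p = 1.07e-06). Of 13 genes of this list tested between these tissues, 3 were higher in epithelial cells, Mbp among them, and 9 lower. Of all genes 55.3% differed there (27.9% lower). The summed list ran from 482.1 to 784.5 CPM in epithelial cells and from 382.3 to 523.0 CPM in untreated wall, each tissue scaled on its own.

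Of 19 tested genes of transmitters, their enzymes and transporters, 6 were higher and 1 lower in control wall, and 9 were higher and 1 lower in transgenic wall. Tac1, the precursor of substance P, rose from 17.5 ± 2.79 to 70.7 ± 19.1 CPM in control wall and from 13.1 ± 2.96 to 65.3 ± 25.5 CPM in transgenic wall. Penk, an enkephalin precursor, rose by 1.35 ± 0.37 and 1.66 ± 0.37 on the log2 scale (adjusted p = 0.00934 and 0.00272, edgeR). Slc5a7, the choline transporter that supplies CHAT, rose by 1.03 ± 0.27 and 1.58 ± 0.28 (adjusted p = 0.0074 and 5.57e-04). Slc18a3, the vesicular acetylcholine transporter, whose gene lies within the Chat locus, rose by 1.10 ± 0.36 and 1.27 ± 0.37 (adjusted p = 0.0243 and 0.0116). Ddc, a decarboxylase of amine synthesis, was the gene that fell in control wall, by 0.72 ± 0.26, and the serotonin transporter Slc6a4 the one that fell in transgenic wall, by 1.48 ± 0.31 (adjusted p = 0.0367 and 0.00185).

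Among 14 tested genes of GDNF, endothelin and related signalling, which act on RET or on the same crest-derived cells, 10 were higher in control wall and 8 in transgenic wall, and none was lower. Gdnf, the ligand, rose by 1.33 ± 0.34 and 1.17 ± 0.34 on the log2 scale (adjusted p = 0.00684 and 0.0131, edgeR). Gfra1, the co-receptor that presents GDNF to RET, rose by 1.15 ± 0.29 and 1.32 ± 0.29 (adjusted p = 0.00569 and 0.00238). Ednrb, the endothelin receptor of enteric precursors, went from 6.30 ± 1.05 to 28.9 ± 14.4 CPM in control wall and from 6.05 ± 1.04 to 22.2 ± 8.49 CPM in transgenic wall, and passed in both (adjusted p = 2.11e-04 and 4.57e-04). Zeb2, a transcription factor, and Artn, a GDNF family ligand, rose as well, by 1.76 ± 0.27 and 1.71 ± 0.32 in control wall (adjusted p = 2.89e-04 and 0.001).

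This list held 16 genes that receive nitric oxide, VIP, acetylcholine or tachykinin signals or break acetylcholine down (Ache and Bche). Of these, 12 were higher in each genotype, and 1, Vipr1, was lower in transgenic wall. The nitric oxide receptor subunits Gucy1a3 and Gucy1b3 rose by 1.52 ± 0.23 and 1.38 ± 0.23 on the log2 scale in control wall (adjusted p = 2.59e-04 and 4.57e-04, edgeR). The VIP receptors differed from each other. Vipr2 rose by 1.18 ± 0.26 and 0.71 ± 0.26 (adjusted p = 0.00255 and 0.0369), whereas Vipr1 was at -0.11 ± 0.18 in control wall and fell by 0.64 ± 0.18 in transgenic wall (adjusted p = 0.656 and 0.00976). Tacr2, a tachykinin receptor of muscle, rose by 1.49 ± 0.28 and 1.36 ± 0.28 (adjusted p = 0.00106 and 0.00163).

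Markers of other cell types of the wall moved with the neuron and glia genes. All 6 fibroblast and all 8 endothelial genes were higher with DSS in both genotypes, with medians of 1.47 and 1.52 on the log2 scale in control wall and 1.41 and 1.37 in transgenic wall. Dcn, a matrix proteoglycan of fibroblasts, rose from 190.7 ± 15.3 to 540.8 ± 258.7 CPM in controls, and Pecam1, an endothelial adhesion molecule, from 40.1 ± 5.13 to 113.7 ± 18.3 CPM. The fibroblast genes Lum and Pdgfra rose by 1.62 ± 0.18 and 1.90 ± 0.31 on the log2 scale in control wall, and the endothelial receptor genes Tie1 and Tek by 1.56 ± 0.16 and 1.99 ± 0.21. Of 12 smooth muscle genes, 5 were higher in control wall and 6 in transgenic wall, with medians of 0.60 and 0.79. Lmod1, a muscle actin nucleator, rose by 1.28 ± 0.27 in control wall (adjusted p = 0.00214, edgeR), Myocd, a regulator of muscle genes, by 1.07 ± 0.30, and Mylk, the myosin light chain kinase, by 0.87 ± 0.26.

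Of 11 epithelial genes none was higher, and 2 fell in control wall (Cdx1 by 0.78 ± 0.19 and Epcam by 0.49 ± 0.19) and 3 in transgenic wall (Cdx1 by 0.74 ± 0.19, Aqp8 by 1.22 ± 0.39 and Slc26a3 by 1.01 ± 0.30). Summed epithelial markers ran from 18320 to 20470 CPM with DSS in control wall and from 12100 to 26950 CPM in transgenic wall. Of the pacemaker genes, Etv1 rose by 1.18 ± 0.24 and 1.41 ± 0.24. Kit was at -0.05 ± 0.18 and -0.10 ± 0.18 and did not pass, and Ano1 fell by 1.12 ± 0.26 in transgenic wall. Their summed RNA was as high in epithelial cells (221.7 to 381.1 CPM) as in untreated wall (246.5 to 406.4 CPM), each scaled separately. These genes therefore do not measure pacemaker cells alone. Of 8 enteroendocrine genes 5 were higher in control and 3 in transgenic wall, among them the hormone genes Pyy (0.82 ± 0.26 and 0.70 ± 0.26) and Gcg (1.30 ± 0.42 and 1.47 ± 0.42), while Chga, a granule gene, passed in control wall only (0.69 ± 0.20). Of 8 leukocyte genes 3 were higher in control and 2 in transgenic wall. Cd68, a macrophage gene, rose by 2.21 ± 0.40 and 1.39 ± 0.40 and the integrin gene Itgam by 2.17 ± 0.44 and 1.66 ± 0.43, and Cd3e, a T cell gene, passed in control wall only (0.99 ± 0.38). Of 7 tuft cell genes, 1 was higher in control wall and 2 in transgenic wall. Dclk1 rose in transgenic wall (0.75 ± 0.26) and was at 0.62 ± 0.25 in control wall, and Avil was at 0.32 ± 0.25 and 0.03 ± 0.25. No adipocyte (0 of 6) or mesothelial (0 of 4) gene passed in either genotype. The adipocyte genes Lep, Adipoq and Plin1 had fitted values of -2.37, -1.47 and -1.56 in control and 3.42, 2.50 and 3.23 in transgenic wall, with SEs above 1. The mesothelial genes Lrrn4, Wt1 and Msln lay from 0.99 to 2.02 and from 1.73 to 2.83. The part of the other cell types in the change of the 8 genes, or of the listed neuron, glia and signalling genes, was not tested.

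**Figure D3:**
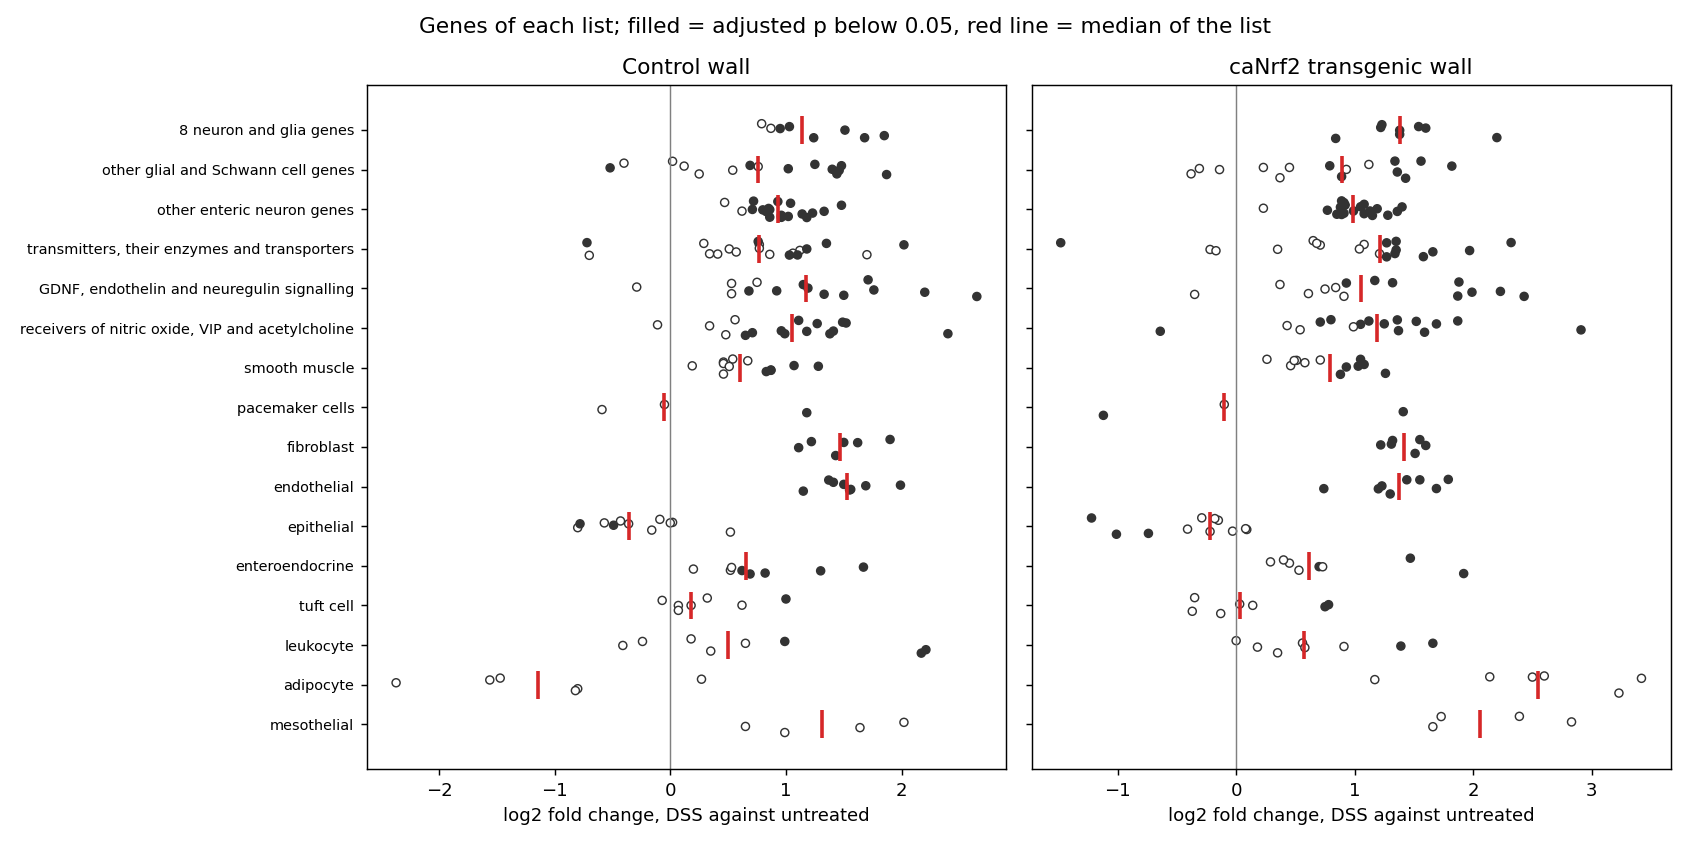
Log2 fold change with DSS against untreated (x axis) of every tested gene, by list (y axis), in control (left) and transgenic (right) wall. Filled points have an adjusted p below 0.05 in edgeR's test and red lines are medians. The 8 neuron and glia genes have medians of 1.14 and 1.38, between smooth muscle (0.60 and 0.79) and endothelial genes (1.52 and 1.37) in control wall and at the level of the endothelial genes in transgenic wall.

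Within the wall groups, Ret, Elavl4, Nos1 and Chat varied together from library to library. Correlations are given as a description, over the deviations of log2 CPM from the group mean in 16 libraries that differ in depth and share the scaling. Pearson's r was 0.96 between Ret and Elavl4, 0.95 between Ret and Nos1 and 0.93 between Ret and Chat. Vip, also a neuronal gene, had values from 0.65 with Nos1 to 0.78 with Ret and Elavl4, and 0.83 with the glial gene Gfap. Among the glial genes r was 0.67 between Sox10 and S100b, 0.68 between S100b and Gfap and 0.35 between Sox10 and Gfap. The lowest value of all pairs was 0.20, between Sox10 and Vip. Glial genes also varied with Ret, Elavl4, Nos1 and Chat. Gfap had values from 0.71 with Chat to 0.87 with Nos1, and S100b from 0.72 with Elavl4 to 0.84 with Chat. Differences between these values were not tested.

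Over 14202 genes with a mean of at least 1 CPM, the genes most like Ret by this measure were Kif5a (0.99), Syt11 (0.98) and Pirt (0.97), and those most like Nos1 were Ank2 (0.97), Kif1a (0.97) and Sept3 (0.96). Elavl4 was nearest to Snap25, Lrp11 and Ret (0.96 each), and Chat to Mapk10, Syt1 and Garnl3 (0.98 each). Vip was nearest to Pcsk1 (0.94), 2010204K13Rik (0.93) and Sst (0.93), and Gfap to Pcsk1 (0.93), Tubb4a (0.91) and Pirt (0.91). S100b was nearest to Pnmal2 (0.94), Gpr37l1 (0.93) and Tubg2 (0.92), and Sox10 to Dvl2 (0.94), Gnaz (0.92) and Zfp354c (0.91). Kif5a and Kif1a encode axonal motor proteins, Snap25 and Syt1 encode proteins of synaptic vesicle release, and Pcsk1 encodes a protease that processes peptide precursors.

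**Figure D4:**
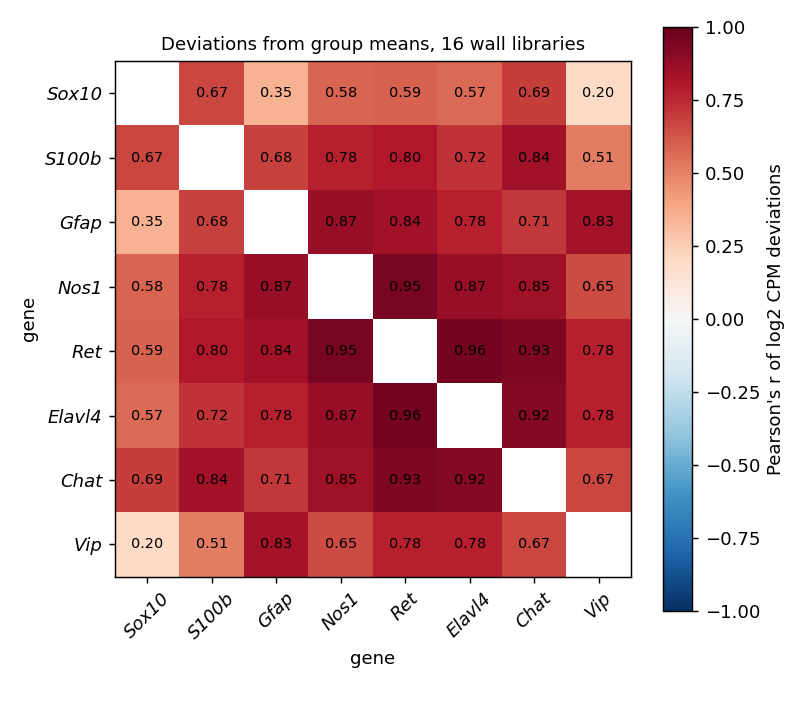
Pearson's r between pairs of the 8 genes (both axes), from deviations of log2 CPM from the group mean over the 16 wall libraries, on a colour scale from -1 to 1. Values among Ret, Elavl4, Nos1 and Chat run from 0.85 to 0.96, Gfap has 0.87 with Nos1, and the lowest value is 0.20, between Sox10 and Vip.

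The design also asks whether the transgene changed these genes. In untreated wall 0 of the 8 passed between genotypes, where 0.224% of all genes were called, and in DSS-treated wall again 0 of the 8 passed, where 0.0933% were called. None of the 8 had an unadjusted p below 0.05 in either comparison, and DESeq2 also called 0 of them in both. The largest untreated difference was in Gfap, at 18.5 ± 12.4 CPM in control and 9.64 ± 4.78 CPM in transgenic wall, a log2 fold change of -0.94 ± 0.59 (adjusted p = 0.628, edgeR). The other 7 lay between -0.29 and 0.37, with SEs from 0.25 to 0.38. With DSS the 8 lay between -0.13 and 0.28. With SEs of this size and so few genes called, changes of several times the SE could also have failed to pass. A missing call therefore does not exclude them.

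The DSS and genotype comparisons share their wall groups and are not independent. Whether the DSS effect differed between the genotypes was tested directly. The edgeR test called 0 of the 8, and 0 of all 16074 genes (0.0%), while 1279 genes had an unadjusted p below 0.05 and DESeq2 called 32 genes. The difference, transgenic minus control, was 0.52 ± 0.44 for Nos1, 0.81 ± 0.82 for Gfap and -0.47 ± 0.42 for Sox10 on the log2 scale (adjusted p = 0.894, 0.924 and 0.907). For the other 5 it lay between -0.13 and 0.35. No gene of the other lists passed in a comparison of genotypes or in this difference.

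In epithelial cells 7 of the 8 genes were lower than in untreated wall, where 55.3% of all 15073 genes tested differed (27.9% lower). The epithelial preparations held little RNA of most of these genes. Sox10 was at 0 reads in all 4 control epithelial libraries and at 0, 1, 1 and 0 reads in the transgenic ones. Against a limit of 3 reads over the 4 control libraries (0.0683 CPM), it was at least 45.7-fold lower than in untreated control wall (3.12 CPM of total counts). S100b had 4 reads in control replicate 2 and none in the other 7 epithelial libraries, and was at least 48.3-fold lower in transgenic epithelial cells than in transgenic wall. These limits cover counting error only.

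Vip, the most abundant in the wall, had 0 to 5 reads per epithelial library and a log2 difference of -8.05 ± 0.45 (adjusted p = 9.04e-10, edgeR). Nos1 had 0 to 1 reads in control and 0, 8, 0 and 0 reads in transgenic epithelial libraries, with a log2 difference of -6.36 ± 0.62 (adjusted p = 3.55e-07). Gfap had 3 to 5 reads in control and 1 to 25 reads in transgenic libraries (-4.53 ± 0.61, adjusted p = 1.07e-05). Elavl4 had 2 to 11 reads in control libraries, and in the transgenic ones 3 reads in replicate 1 and none in the others (-4.54 ± 0.47, adjusted p = 7.86e-07).

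Ret and Chat were the 2 genes with more than a few reads in most epithelial libraries. Ret was at 4.50, 4.63, 4.65 and 3.97 CPM in control and 5.18, 5.97, 4.79 and 5.26 CPM in transgenic epithelial cells, from 29 to 67 reads per library. These values lay close together and below every untreated wall library, with a log2 difference of -1.81 ± 0.15 (adjusted p = 9e-08, edgeR), the smallest of the 7 that passed. The share of the transcript of the longer RET protein ran from 0% to 82.0% on these few reads and allows no comparison with the wall.

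Chat was at 1.27, 1.06, 1.75 and 1.78 CPM in control and 1.62, 4.36, 1.06 and 0.245 CPM in transgenic epithelial cells, from 2 to 46 reads. It was the only one of the 8 not lower than in wall. Its log2 difference of 0.96 ± 0.40 did not pass in edgeR's test (adjusted p = 0.052) and passed with DESeq2 (0.88, adjusted p = 0.0446). It also passed in edgeR's test without transgenic epithelial replicate 3 (1.06, adjusted p = 0.0294) or replicate 4 (1.13, adjusted p = 0.00794). As single libraries were left out in turn, the log2 difference ran from 0.52 to 1.13, so other omissions lowered it. Per length, Ret (1.07 ± 0.0954 TPM) and Chat (0.923 ± 0.233 TPM) were the highest of the 8 in control epithelial cells, though Chat was the lowest in the wall.

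Of the tuft cell markers, an epithelial cell type that expresses Chat, 6 of 7 tested were higher in epithelial cells than in wall. Trpm5, a cation channel of tuft cells, was 2.59 ± 0.24 higher on the log2 scale (adjusted p = 2.41e-07, edgeR), and Dclk1 1.05 ± 0.17 (adjusted p = 7.45e-05). The summed tuft cell markers ran from 89.7 to 163.6 CPM in epithelial cells and from 23.6 to 56.7 CPM in untreated wall, each tissue scaled on its own. Slc18a3, the acetylcholine transporter that cholinergic neurons carry beside Chat, was lower in epithelial cells, at -3.60 ± 0.50 on the log2 scale (adjusted p = 1.53e-05). Of 19 other enteric neuron genes, 18 were lower in epithelial cells and none higher. The part of tuft cells or neurons in the Chat value was not tested.

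**Figure D5:**
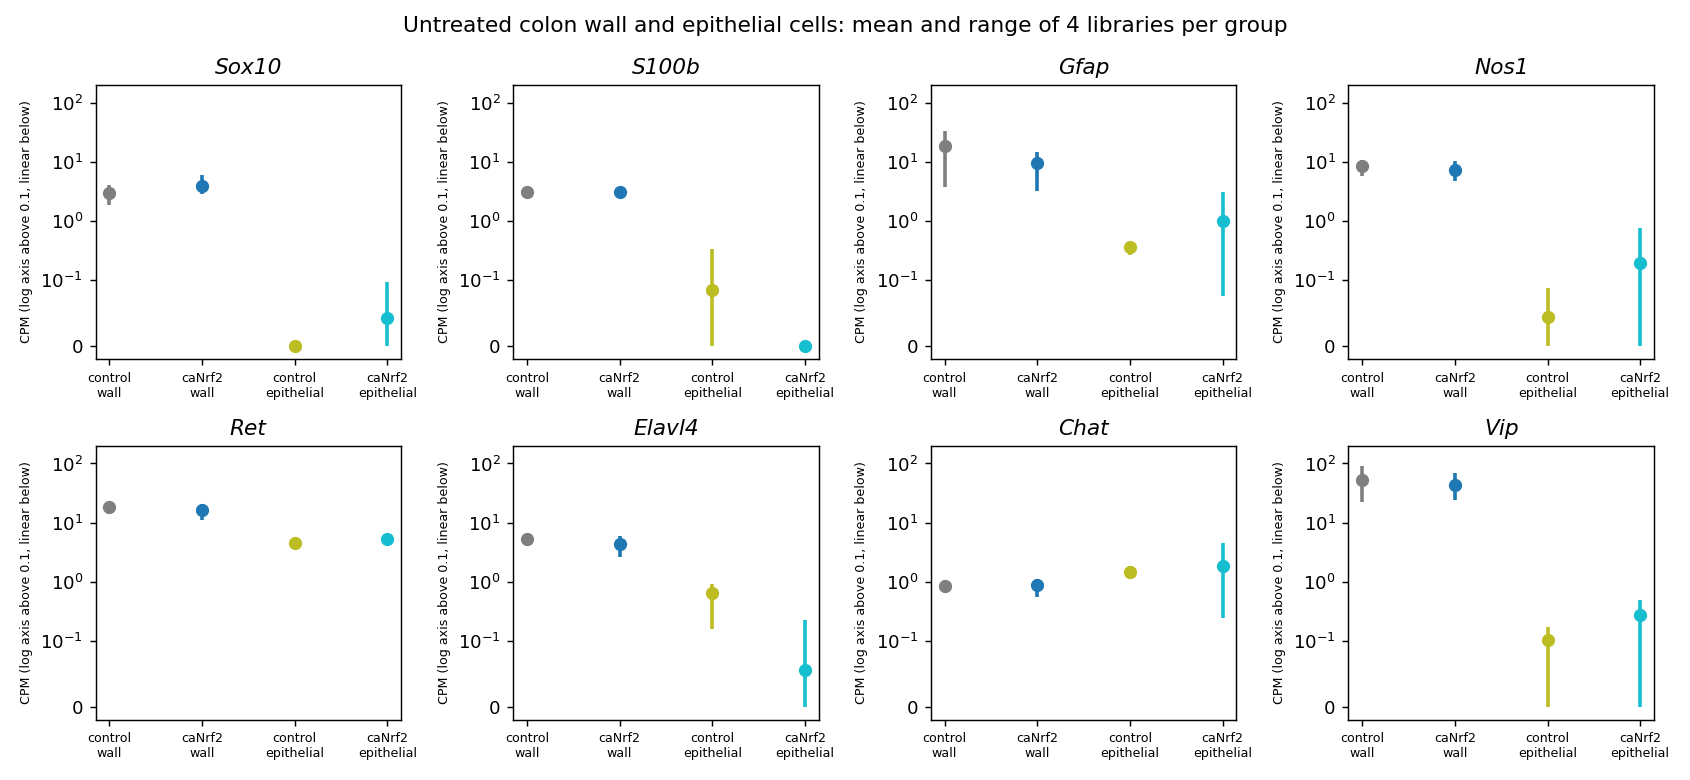
CPM (y axis, logarithmic above 0.1 and linear below) of the 8 genes in untreated wall and epithelial cells of control and transgenic (caNrf2) mice, all 16 libraries scaled together. Points are means and bars the range of 4 libraries. Ret has means of 4.52 and 5.30 CPM in epithelial cells and Chat is at 1.49 and 1.83 CPM, whereas the other 6 genes have means from 0 to 1.01 CPM there.

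Between genotypes in epithelial cells only Ret and Chat had enough reads to be tested, and 0 of these 2 passed, as 0 of all 12941 genes did (0.0%). At an unadjusted p below 0.05 there were 1344 genes, and DESeq2 called 201. The log2 fold change, transgenic against control, was 0.25 ± 0.26 for Ret and 0.32 ± 0.74 for Chat (adjusted p = 0.83 and 0.941, edgeR). The SE of Chat is large, on 2 to 46 reads per library, and without transgenic replicate 2 the value was -0.55 ± 0.71.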

How the data were processed

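Messenger RNA was measured in 24 libraries, 1 deposited table each. Per the file headers, the authors' tables give an estimated count (expected count) and a TPM value for each of 30383 RefSeq transcripts, and 39.2% of the counts are not whole. The submitters' processing notes name RSEM 1.2.11, FastQC and the build mm10. No source used here names an aligner or a strand setting. Deposited counts were summed per gene symbol and rounded, and deposited TPM values were summed per symbol to compare levels between genes. No test used TPM. Reads of overlapping genes cannot be told apart.

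The main test was edgeR 4.0.16 (R 4.3.3, limma 3.58.1), glmQLFit and glmQLFTest, with TMM scaling, filterByExpr by group, Benjamini-Hochberg adjustment and a threshold of 0.05. The 16 wall libraries (16074 genes, biological coefficient of variation 0.261), the 8 epithelial libraries (12941 genes, 0.364) and the 8 epithelial with the 8 untreated wall libraries (15073 genes, 0.299) were fitted separately. SEs were taken as the size of the log2 fold change over the root of its F statistic. DESeq2 1.42.0 was an alternative, beside RLE scaling, no low count filter, a replicate block, libraries left out in turn, the 12 wall libraries of the first file number, the file number as a term, and scaling to smooth muscle or, added later, to other neuron genes. Steps were tested on simulated data. No 2 libraries of a group were the same library by their counts (36 pairs, lowest chi-square per gene 10.5).

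All 8 genes were named in each comparison, and of each other list the 3 genes with the smallest unadjusted p for DSS in control wall. Some genes that this rule names are not reported here. List genes named beyond these (Phox2a, Scg2, Mbp, Slc18a3, Ddc, Slc6a4, Gdnf, Gfra1, Vipr1, Vipr2, Slc26a3 and Trpm5) were chosen after their values were seen. The 8 genes, the lists and the tests were chosen with earlier results of these data known. Promoter sequences are from RefSeq on GRCm38.p6.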

Additional observations from a re-analysis of the deposited data

Results flagged for a closer look

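In 38 sets of 4 libraries of 1 gene and 1 group, 2 had a library far from the other 3 by Dixon's criterion, close to the 1 in 20 that chance gives. Sox10 in control wall with DSS was at 14.99 CPM in replicate 3 and at 9.32 to 10.0 CPM in the others. That library had the lowest total count of the wall, 20232317, and also the highest S100b, Nos1, Ret, Elavl4 and Chat of its group. Its summed smooth muscle markers were the highest of the group as well, at 44250 CPM against 11130 to 21430 CPM in the others. Gfap in transgenic epithelial cells was at 3.058 CPM in replicate 4, from 25 reads, and at 0.0760 to 0.568 CPM, from 1 to 6 reads, in the others.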

How the results depend on the processing

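Among the 8 genes the count called for DSS was 2 (control) and 1 (transgenic) with smooth muscle scaling, 2 and 1 with scaling to other neuron genes, and 5 in transgenic wall with the 12 libraries of the first file number. Over all genes the DSS counts were 1325 and 3118 with muscle scaling, and those with the 12 libraries are not given here. For the difference between genotypes they were 32 with DESeq2 and 98 with the 12 libraries. For the transgene in untreated wall they were 235 with DESeq2, 7 with the replicate block, 404 with the 12 libraries, 19 with the file number as a term and 16 with neuron scaling, against 36. In DSS-treated wall they were 43, 0 with the block and 0 with the 12 libraries, against 15. In epithelial cells DESeq2 called 201. The causes were not tested. Leaving out each library in turn, the 8 genes gave 6 to 7 calls for DSS in control wall, 5 to 8 in transgenic wall and 7 to 8 between tissues, and 0 to 0 in the comparisons of genotypes. Over all genes these ranges were 4952 to 6784 and 4975 to 7197 for DSS, 0 to 93 for the difference, 5 to 320 and 0 to 36 for the transgene in untreated and DSS-treated wall, 0 to 24 in epithelial cells and 7638 to 8854 between tissues.

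No value whose sign changed passed its test under that setting. With muscle scaling the difference between genotypes was -0.10 for Ret, -0.03 for Elavl4 and -0.06 for Vip. The transgene value in untreated wall was 0.03 for Nos1 and 0.08 for Ret, and with DSS -0.02 for Ret, -0.06 for Elavl4 and -0.10 for Vip. With neuron scaling S100b was -0.23 for DSS in transgenic wall, and the transgene value with DSS was -0.005 for Ret and -0.02 for Elavl4. Elavl4 was -0.003 there with the replicate block and -0.0008 with the file number as a term. In untreated wall S100b was -0.01 with RLE scaling and with DESeq2. In epithelial cells Chat was -0.14 with the replicate block. Leaving out libraries, values near 0 changed sign in 35 cases: the difference for Chat (-0.31 to 0.21), S100b (-0.30 to 0.08) and Vip (-0.05 to 0.67). In untreated wall these were Chat (-0.12 to 0.20), S100b (-0.05 to 0.12) and Vip (-0.61 to 0.12). With DSS they were Chat (-0.27 to 0.25), Elavl4 (-0.13 to 0.21), Gfap (-0.48 to 0.19), Ret (-0.12 to 0.23), S100b (-0.30 to 0.10), Sox10 (-0.19 to 0.08) and Vip (-0.10 to 0.28), and in epithelial cells Chat (-0.55 to 0.68). Same-numbered replicates had r of either sign in wall, from -0.38 to 0.35, so the numbers were not taken as pairs. The highest value was between the DSS libraries of replicate 2, and the untreated libraries of replicate 4 had 0.20. In epithelial cells r ran from -0.595 to 0.299. With the replicate block 6 and 7 of the 8 genes were called for DSS, the loss being Gfap (adjusted p = 0.0573). The share of all genes called for DSS with this block is not given here. In epithelial cells 6 of the 8 genes did not pass the filter on low counts, so a difference between genotypes was not tested for them.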

Other observations

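In both untreated wall groups replicate 4, whose files carry the other leading number, was the lowest library for Gfap (3.80 and 3.33 CPM), Nos1 (5.77 and 4.75), Ret (14.3 and 11.4), Elavl4 (4.11 and 2.71), Chat (0.661 and 0.552) and Vip (22.3 and 24.0). It was not the lowest for these genes in either DSS group.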
